A study of Mus musculus with 36 samples.

Results

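B cells turned into macrophages by the C/EBPα R35K mutant were compared with those made by wild-type C/EBPα at 120 hr post induction (hpi). The comparison rested on 4 RNA-seq libraries, 2 for each construct, out of the 36 of the series. It was defined by construct and timepoint, with earlier results of these data known. The 4 libraries of the same constructs at 0 hpi served as a check on differences that were present before induction. Both constructs were carried by a retrovirus into B cells from the bone marrow of C57BL/6J mice. C/EBPα was fused to the estrogen receptor, so that estradiol starts the B cell to macrophage transdifferentiation (BMT), and human CD4 marked the infected cells. Infected cells were enriched on columns by human CD4 after culture on embryonic fibroblast feeders, and were induced on inactivated feeders with added cytokines. The feeders were removed by differential adherence before RNA extraction, and the 0 hpi cells were infected but not induced. In R35K the arginine at position 35 of C/EBPα is replaced by lysine, which keeps the positive charge. In R35A, the other mutant of the series and used here only beside R35K, it is replaced by alanine, which removes it. The R35K libraries were deposited in a count table of their own, so construct and table cannot be told apart at any single timepoint.

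C/EBPα is a leucine zipper transcription factor of myeloid progenitors. Together with PU.1, the product of Spi1, it activates macrophage genes when it is forced into B cells, while the B cell program is silenced. Among macrophages, cells recently derived from circulating monocytes carry the chemokine receptor Ccr2 and the surface protein Ly6c2, whereas many tissue-resident macrophages carry the sialic acid receptor Siglec1. The question posed by the comparison was whether a mutant that conserves the charge at position 35 ends in the same macrophage transcriptome as the wild-type factor.

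The libraries held 13044456 to 15934472 counted reads, and 16033 genes passed the low-count filter. Levels are given as normalized CPM, the counts of a gene relative to the scaled total of its library, and a gene was called at a change of at least 1.5-fold with an edgeR adjusted p of at most 0.05. Before induction 0 genes (0%) were called between the constructs by edgeR or by DESeq2, while 162 and 45 genes passed the fold change at an unadjusted p of 0.05. The smallest edgeR adjusted p at 0 hpi was 0.0929. Pairs of libraries, scaled by their total counts, were compared over genes with at least 50 counts in the pair together. The median squared difference at 0 hpi was 1.31 to 1.54 times counting noise between wild type and R35K. Between replicates it was 1.2 to 1.39 times. At 120 hpi it was 8.9 to 11.06 times between the constructs and 1.8 to 2.16 times between replicates.

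The labelled cell types were checked against marker genes. The summed level of 9 B cell markers was 3170 to 3330 CPM in the 0 hpi libraries and fell to 128 and 134 CPM in wild-type cells and to 94.4 and 94.5 CPM in R35K cells. The sum of 8 macrophage markers went from 62.7 to 65.9 CPM at 0 hpi to 17700 and 18100 CPM in wild type and to 23400 and 23800 CPM in R35K. At 120 hpi macrophage transcripts were abundant and B cell transcripts few in both constructs, with the higher macrophage sum and the lower B cell sum in the R35K libraries. Of the 8 macrophage markers 1 was called higher and 0 lower, and the sum is dominated by Lyz2, which was not called. Of the 9 B cell markers 1 was called higher and 1 lower. In bulk RNA, fewer cells of a type and less RNA per cell cannot be told apart.

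At 120 hpi, 2244 of the 16033 genes (14.0%) differed between R35K and wild-type cells. Of these, 1550 (9.67% of the genes tested) were higher in R35K and 694 (4.33%) were lower, so that 69.1% of the calls were in the direction of higher expression. At a 2-fold threshold 1199 genes were called. The median log2 fold change over all genes was 0.

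**Figure D1:**
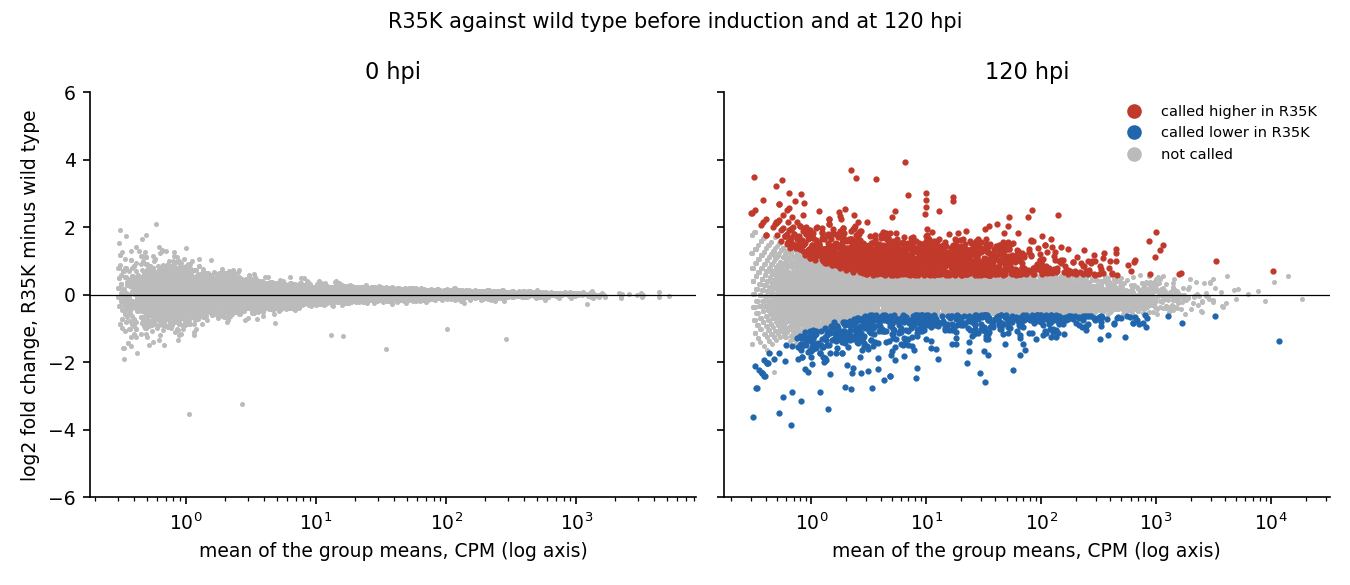
The log2 fold change between R35K and wild-type cells (vertical axis) is plotted against the mean CPM of the 2 groups (horizontal log axis) at 0 hpi (left) and 120 hpi (right), 1 point per gene, with genes under a mean of 0.3 CPM left out (616 at 0 hpi and 1629 at 120 hpi). Called genes are red where higher and blue where lower in R35K. The left panel has 0 called genes and the right panel 2244, with more red points than blue.

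Among genes of at least 5 CPM, the largest difference was that of Vldlr (chr19:27216484-27254231, mm10), the very low density lipoprotein receptor. Vldlr was measured at 0.857 and 0.739 CPM in the wild-type libraries and at 11.1 and 13.3 CPM in the R35K libraries (log2 fold change 3.92, SE 0.23, edgeR adjusted p = 4.22e-15). At 0 hpi it stood between 23.7 and 26.1 CPM in all 4 libraries, so this transcript fell in both constructs and fell less in R35K (difference in change 3.84 on the log2 scale, edgeR adjusted p = 4.95e-13). Next was Ch25h (chr19:34473778-34475164), which encodes cholesterol 25-hydroxylase, with 2.49 and 1.94 CPM in wild type and 18.16 and 17.6 CPM in R35K (log2 fold change 3.00, SE 0.18, edgeR adjusted p = 2.83e-15). Unlike Vldlr, Ch25h was at 0.428 to 0.761 CPM in the 0 hpi libraries and rose in both constructs. The formyl peptide receptor Fpr1 (chr17:17876471-17883940) was at 24.9 and 24.6 CPM in wild type and at 147 and 136 CPM in R35K, a difference of 5.73-fold (edgeR adjusted p = 8.17e-23). The stem cell antigen Ly6a was at 48.4 and 43.0 CPM in wild type and at 239 and 226 CPM in R35K, and at 50.1 to 52.8 CPM at 0 hpi. Its level rose in R35K cells and was not called changed in wild-type cells (log2 fold change from 0 hpi −0.14 in wild type and 2.17 in R35K; edgeR adjusted p of the difference in change 6.36e-19).

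The other genes among the 12 with the highest fold change were Pcdhac2, Mcoln3, Dnm1, Scn3b, Gfra4, Rgs7bp, Htra1 and Saa3. Mcoln3 encodes an endolysosomal cation channel, Dnm1 a dynamin of endocytosis, Scn3b a sodium channel subunit, Htra1 a secreted serine protease and Saa3 an acute-phase protein made by macrophages. Their log2 fold changes lay between 2.31 for Saa3 and 2.89 for Pcdhac2. Pcdhac2 shares exons with the other genes of its protocadherin cluster, so its count is uncertain. In each of the 12, both R35K libraries lay above both wild-type libraries, as the rule that chose them required.

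Among the genes of at least 5 CPM that were lower, Rab44 (chr17:29114145-29148980), a large Rab GTPase of haematopoietic cells, had the largest difference. It was at 54.9 and 56.2 CPM in wild type and at 9.68 and 8.71 CPM in R35K, which is 6.04-fold lower (SE of log2 0.10, edgeR adjusted p = 1.13e-19). Rab44 rose during BMT in both constructs, by 4.37 in wild type and 1.55 in R35K on the log2 scale. The angiotensin-converting enzyme gene Ace (chr11:105967945-105989964) was at 50.3 and 48.4 CPM in wild type and at 8.80 and 10.8 CPM in R35K (log2 fold change −2.33, SE 0.10, edgeR adjusted p = 4.44e-18). Coagulation factor gene F10 (chr8:13037308-13056676) was at 96.6 and 91.6 CPM in wild type and at 21.1 and 19.4 CPM in R35K (log2 fold change −2.22, edgeR adjusted p = 3.41e-20). The inflammasome protein pyrin, encoded by Mefv, had 37.4 and 35.6 CPM in wild type and 8.73 and 9.25 CPM in R35K (log2 fold change −2.02, edgeR adjusted p = 1.22e-15). Ace, F10 and Mefv were at 0 to 0.305 CPM in the 0 hpi libraries, so that these genes were off before induction and reached lower levels in R35K. The other 8 of the 12 lowest were Tnxb, P2rx1, Crispld2, Olr1, Hdc, Tmem108, B3galt2 and Rnf144a, with log2 fold changes from −2.51 to −1.92. P2rx1 encodes an ATP-gated channel, Olr1 the scavenger receptor for oxidized LDL and Hdc histidine decarboxylase.

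Because C/EBPα is the factor that was mutated, the promoters of these 24 genes were searched for its core motif. The 250 bases before the start site were taken from RefSeq (GRCm38.p6), which held a promoter for 9 of the 12 highest and 11 of the 12 lowest genes. The letters TTGCNNAA were searched on both strands and were found in 3 of the 9 and 1 of the 11. Over all genes tested, 9.21% of 11296 promoters held a match, against 11.9% of the 1139 promoters of genes called higher and 11% of the 465 of genes called lower. The PU.1 letters GAGGAAGT were in 3.17% of all promoters, 2.99% of those called higher and 5.81% of those called lower. The motifs were searched separately, so matches may overlap. For the AP-1 letters TGANTCA the shares were 5.9%, 8.08% and 10.5%. These shares are descriptions without a test, and a match is not a bound site. The 4 promoters with a C/EBP match are shown because they place the letters in the genes with the largest differences; they are written 5′ to 3′ on the strand of the gene, with the match in capitals, whose first base lies 116, 112, 99 and 99 bases before the start. The RefSeq start used for Tmem108 lies inside the gene, 69030 bases from the start in GENCODE.
Vldlr, chr19:27216234-27216483, + strand: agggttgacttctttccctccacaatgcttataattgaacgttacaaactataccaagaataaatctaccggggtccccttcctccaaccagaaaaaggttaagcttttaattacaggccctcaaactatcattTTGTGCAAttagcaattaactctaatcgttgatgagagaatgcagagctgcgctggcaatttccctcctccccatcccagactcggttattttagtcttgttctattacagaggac
Ch25h, chr19:34475149-34475398, − strand: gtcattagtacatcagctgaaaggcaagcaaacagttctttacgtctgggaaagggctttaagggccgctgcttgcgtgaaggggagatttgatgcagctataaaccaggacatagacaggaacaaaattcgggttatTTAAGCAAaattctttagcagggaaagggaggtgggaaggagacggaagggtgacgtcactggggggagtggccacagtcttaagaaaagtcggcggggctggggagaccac
Saa3, chr7:46715677-46715926, − strand: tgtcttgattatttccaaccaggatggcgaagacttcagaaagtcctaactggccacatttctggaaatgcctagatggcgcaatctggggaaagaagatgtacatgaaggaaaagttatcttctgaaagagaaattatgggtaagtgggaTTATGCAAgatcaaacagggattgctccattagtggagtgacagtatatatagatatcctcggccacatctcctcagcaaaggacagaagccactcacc
Tmem108, chr9:103692808-103693057, − strand: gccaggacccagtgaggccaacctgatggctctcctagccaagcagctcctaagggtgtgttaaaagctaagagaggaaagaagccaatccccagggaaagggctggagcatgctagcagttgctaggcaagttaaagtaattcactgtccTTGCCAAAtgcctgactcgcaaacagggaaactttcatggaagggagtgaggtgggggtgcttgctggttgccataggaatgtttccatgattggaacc

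The calls on the resident macrophage list were in the higher direction and those on the monocyte list in the lower direction, while 8 of 14 and 6 of 12 members were not called. Of 14 tested genes of resident macrophages and complement, 6 were called higher and 0 lower, against 9.67% and 4.33% of all genes, with a median log2 fold change of 0.50 at 120 hpi and 0.22 at 0 hpi. Siglec1 (chr2:131069220-131086765) was at 442 and 421 CPM in wild type and at 1516 and 1591 CPM in R35K, a 3.6-fold difference (log2 fold change 1.85, SE 0.05, edgeR adjusted p = 2.82e-24). Gas6, a bridging ligand for the uptake of dying cells, was at 259 and 241 CPM in wild type and at 663 and 625 CPM in R35K (log2 fold change 1.36, edgeR adjusted p = 3.02e-20). Cd5l, a secreted scavenger protein of tissue macrophages, was at 267 and 259.8 CPM in wild type and at 515 and 534 CPM in R35K (log2 fold change 0.99, edgeR adjusted p = 2.13e-17). In all 3 the groups were far apart relative to the spread of their libraries. The folate receptor Folr2, the apolipoprotein Apoe and the transcription factor Maf completed the 6, with log2 fold changes of 0.82, 0.72 and 0.59. The 3 complement C1q genes were not called, with values of 0.09 for C1qc, −0.02 for C1qb and −0.37 for C1qa, and neither was the fractalkine receptor Cx3cr1 at −0.34. By the difference in change from 0 hpi, 3 members of this list were called higher (Siglec1, Gas6 and Maf) and 1 lower (C1qc). Siglec1, Cd5l, Folr2 and C1qc were at 0 to 1.61 CPM in the 0 hpi libraries, so that their change rests on few counts, and Cd5l was not called (edgeR adjusted p = 0.54).

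Of 12 tested monocyte genes, 6 were lower and 0 higher in R35K, with a median of −0.76 (−0.69 without Chil3, which had at most 3 counts in each library at 120 hpi). Besides Ace, the matrix proteoglycan Vcan was at 1054 and 1111 CPM in wild type and at 529 and 593 CPM in R35K (log2 fold change −0.95, SE 0.05, edgeR adjusted p = 1.03e-16). Nr4a1, the orphan nuclear receptor required by patrolling monocytes, was at 958 and 866 CPM in wild type and at 509 and 498 CPM in R35K (log2 fold change −0.86, edgeR adjusted p = 9.07e-16). Ccr2 was at 2083 and 2225 CPM in wild type and at 1165 and 1256 CPM in R35K (log2 fold change −0.83, edgeR adjusted p = 5.31e-16). Both libraries of R35K lay below both of wild type for each of the 3 genes. Ly6c2 and Treml4 were also lower, at −0.85 and −0.69, while F13a1 (0.12), Fn1 (−0.19) and Ms4a4c (−0.33) were not called. Ly6c2 and Ly6a belong to families of near-identical genes, and reads that map to several of them are not counted by the aligner. By the difference in change, 4 of the 12 monocyte genes were called lower (Vcan, Nr4a1, Ccr2 and Ly6c2) and 0 higher. At a 2-fold threshold, 2 of the 6 resident and 1 of the 6 monocyte genes remained.

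**Figure D2:**
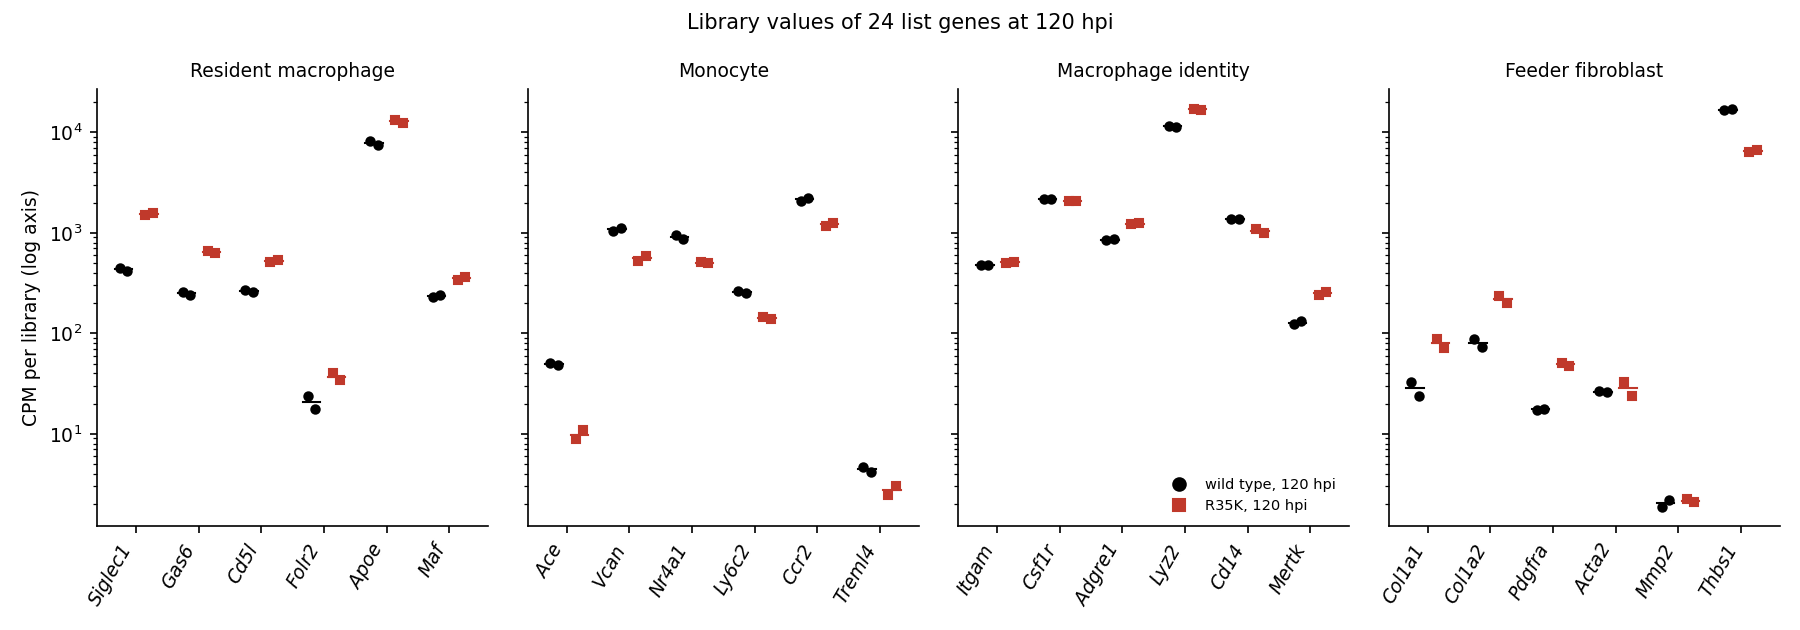
The CPM of 24 list genes at 120 hpi is shown for each library on a log axis, black circles for wild type and red squares for R35K, with a line at the mean of the 2 libraries. The resident macrophage and monocyte genes drawn are the called members, 6 of 14 and 6 of 12 tested, and members not called are left out. By that choice the resident macrophage genes are higher in R35K and the monocyte genes lower. The macrophage identity genes Itgam and Csf1r lie close together. Of the feeder genes Acta2 and Mmp2 overlap between the groups while Col1a1, Col1a2 and Pdgfra are higher and Thbs1 is lower.

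Of 20 genes of macrophage identity, 2 were higher and 2 were lower, against 14.0% of all genes called, and the values lay between −0.87 and 0.96 with a median of −0.05. Csf1r, the receptor of CSF-1, was at 2190 and 2149 CPM in wild type and at 2059 and 2087 CPM in R35K (log2 fold change −0.07, edgeR adjusted p = 0.21). Itgam, which encodes CD11b, was at 480 and 477 CPM in wild type and at 497 and 518 CPM in R35K (log2 fold change 0.09, edgeR adjusted p = 0.17). Lyz2, encoding lysozyme, was at 11564 and 11307 CPM in wild type and at 17119 and 16753 CPM in R35K, a log2 fold change of 0.57 just under the threshold. Adgre1, which encodes F4/80, had a value of 0.53, the LPS co-receptor Cd14 one of −0.40 and Spi1 one of −0.24. Among the called genes were Mertk, the receptor of Gas6, at 0.96, the tetraspanin Cd63 at 0.69 and Cebpb at −0.87.

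Among C/EBP family members and partners, 3 of 17 were lower and 0 higher, against 4.33% and 9.67% of all genes. Cebpb, which encodes the C/EBP paralog that accumulates in mature macrophages, was at 198 and 169.9 CPM in wild type and at 115 and 85.6 CPM in R35K (edgeR adjusted p = 1.48e-10). Gfi1, a repressor of myeloid progenitors, and Batf3, a dendritic cell factor, had log2 fold changes of −1.09 and −1.38. Cebpa itself was at 105 and 97.2 CPM in wild type and at 137 and 122 CPM in R35K (log2 fold change 0.36, edgeR adjusted p = 1.40e-05), under the fold threshold, and at 33.3 to 38.3 CPM at 0 hpi. Reads of the retroviral construct can be counted in Cebpa, so this level does not separate the construct from the endogenous gene, and it is no check of the mutation. Carm1, an arginine methyltransferase, was at 53.1 and 41.6 CPM in wild type and at 43.1 and 41.0 CPM in R35K, a difference within the spread of the wild-type libraries (log2 fold change −0.17, edgeR adjusted p = 0.11). Of the 8 arginine methyltransferase genes tested, Prmt2 was called, at 0.61, and the other 7 lay between −0.25 and 0.34.

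Genes of activation were called in both directions. Of 15 genes of alternative activation, 7 were lower and 1 higher, against 4.33% and 9.67% of all genes. Their median was −0.66 (−0.62 without Chil3). The chemokine gene Ccl22 was at 4.63 and 3.97 CPM in wild type and at 1.03 and 1.94 CPM in R35K (log2 fold change −1.53, edgeR adjusted p = 9.13e-05). Ear2, an eosinophil-associated ribonuclease gene, was at 15.7 and 12.8 CPM in wild type and at 5.63 and 5.83 CPM in R35K (log2 fold change −1.32, edgeR adjusted p = 2.64e-08). The transcription factors Irf4 and Myc, at −1.05 and −0.91, the transglutaminase Tgm2 at −0.68, the lectin Mgl2 at −0.66 and Pdcd1lg2 were the others, and Pdcd1lg2, at 1.29 to 1.37 CPM in wild type, lost its call when any of the 4 libraries at 120 hpi was left out. Arg1, encoding arginase, went the other way, with 41.4 and 40.3 CPM in wild type and 95.6 and 95.3 CPM in R35K (log2 fold change 1.22, edgeR adjusted p = 5.70e-16). The mannose receptor Mrc1 was not called, at 0.47.

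Of 20 inflammatory cytokine and receptor genes, 4 were lower and 2 higher, against 4.33% and 9.67% of all genes. Their median was −0.02. The decoy interleukin-1 receptor Il1r2 was at 111 and 117 CPM in wild type and at 52.7 and 50.2 CPM in R35K (log2 fold change −1.14, edgeR adjusted p = 2.14e-15). Nlrp3, the inflammasome sensor, was at 800.4 and 824 CPM in wild type and at 496 and 527 CPM in R35K (log2 fold change −0.67). Il1b and Tnf had values of −0.66 and −0.62, whereas Il1a and Il4ra were higher at 0.75 and 0.64. Of 15 genes of MHC class II and its partners 4 were lower and 1 was higher, Cd40 at 0.87. The invariant chain gene Cd74 was at 845 and 777 CPM in wild type and at 472 and 444 CPM in R35K (log2 fold change −0.82), and H2-Oa, H2-DMb2 and H2-DMa had values of −1.48, −0.93 and −0.72. Of 25 immediate early genes 5 were lower, led by Egr3 at −1.21, and 2 were higher, Jun at 0.70 and Fosb at 0.62.

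Chemokine and pattern receptor genes were called in both directions, beside 9.67% higher and 4.33% lower of all genes. Of 27 chemokine and receptor genes, 4 were higher, which were Fpr1, Ccl8, Cxcl1 and Cxcl3, and Ccr2 and Ccl22 were lower. Ccl8, a ligand for monocyte receptors, was at 15.6 and 15.8 CPM in wild type and at 71.2 and 62.0 CPM in R35K (log2 fold change 2.08, edgeR adjusted p = 1.37e-17). Of 21 Toll-like and pattern receptor genes, 3 were higher and 4 lower. Marco, a scavenger receptor for bacteria, was at 14.3 and 12.8 CPM in wild type and at 44.3 and 41.3 CPM in R35K (log2 fold change 1.65, edgeR adjusted p = 1.17e-14). The endosomal RNA sensors Tlr3 and Tlr8 were also higher, at 1.26 and 1.00, while Clec4e, Tlr9, Nlrp3 and Nod2 were lower, between −0.83 and −0.63. Of 36 interferon-stimulated genes 2 were higher, Ifi44 and Oas2, and 2 were lower, Rsad2 and Cmpk2, and the median was −0.02.

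Genes of phagocytosis and the lysosome were called about as often as genes overall (14.0%) or less. Of 22 Fc and phagocytic receptor genes, Marco and Mertk were higher and 0 were lower, and 0 of the 6 NADPH oxidase subunits were called, with values between −0.45 and 0.15. Of 36 lysosomal genes, 3 were higher and 2 lower, with a median of 0.12. The cysteine protease Ctsl was at 601 and 613 CPM in wild type and at 1687 and 1662 CPM in R35K (log2 fold change 1.46, edgeR adjusted p = 1.01e-22). Gpnmb, a glycoprotein of lipid-laden macrophages, was at 2283 and 2189 CPM in wild type and at 4444 and 4427 CPM in R35K (log2 fold change 0.99). The iron exporter ferroportin, Slc40a1, was at 54.5 and 58.9 CPM in wild type and at 159 and 157 CPM in R35K (log2 fold change 1.48, edgeR adjusted p = 2.59e-19), and was the called member of 13 iron and heme genes.

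The lipid-handling list of 21 genes split, with 4 higher and 5 lower, against 9.67% and 4.33% of all genes. The higher genes were Ch25h, the sterol-sensing receptor Nr1h3 (0.98), the cholesterol exporter Abca1 (0.97) and Apoe (0.72). The lower genes were those of triglyceride synthesis and uptake, Dgat2 (−1.48), Dgat1 (−0.67) and Lpl (−0.64), the adipogenic receptor Pparg (−0.76) and Apoc1 (−1.27). Of 24 genes on the cholesterol synthesis list, 3 were lower and 0 higher, among them Cyp51 (−0.73), a demethylase of sterol synthesis. Few genes of the cell cycle differed, with 1 of 36 called, Cdt1 at −0.69, and 0 of 21 stress genes were called. Of 24 glycolysis and hypoxia genes, Adm was higher (1.35) and Vegfa (−0.65) and Pfkp (−0.63) were lower.

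**Figure D3:**
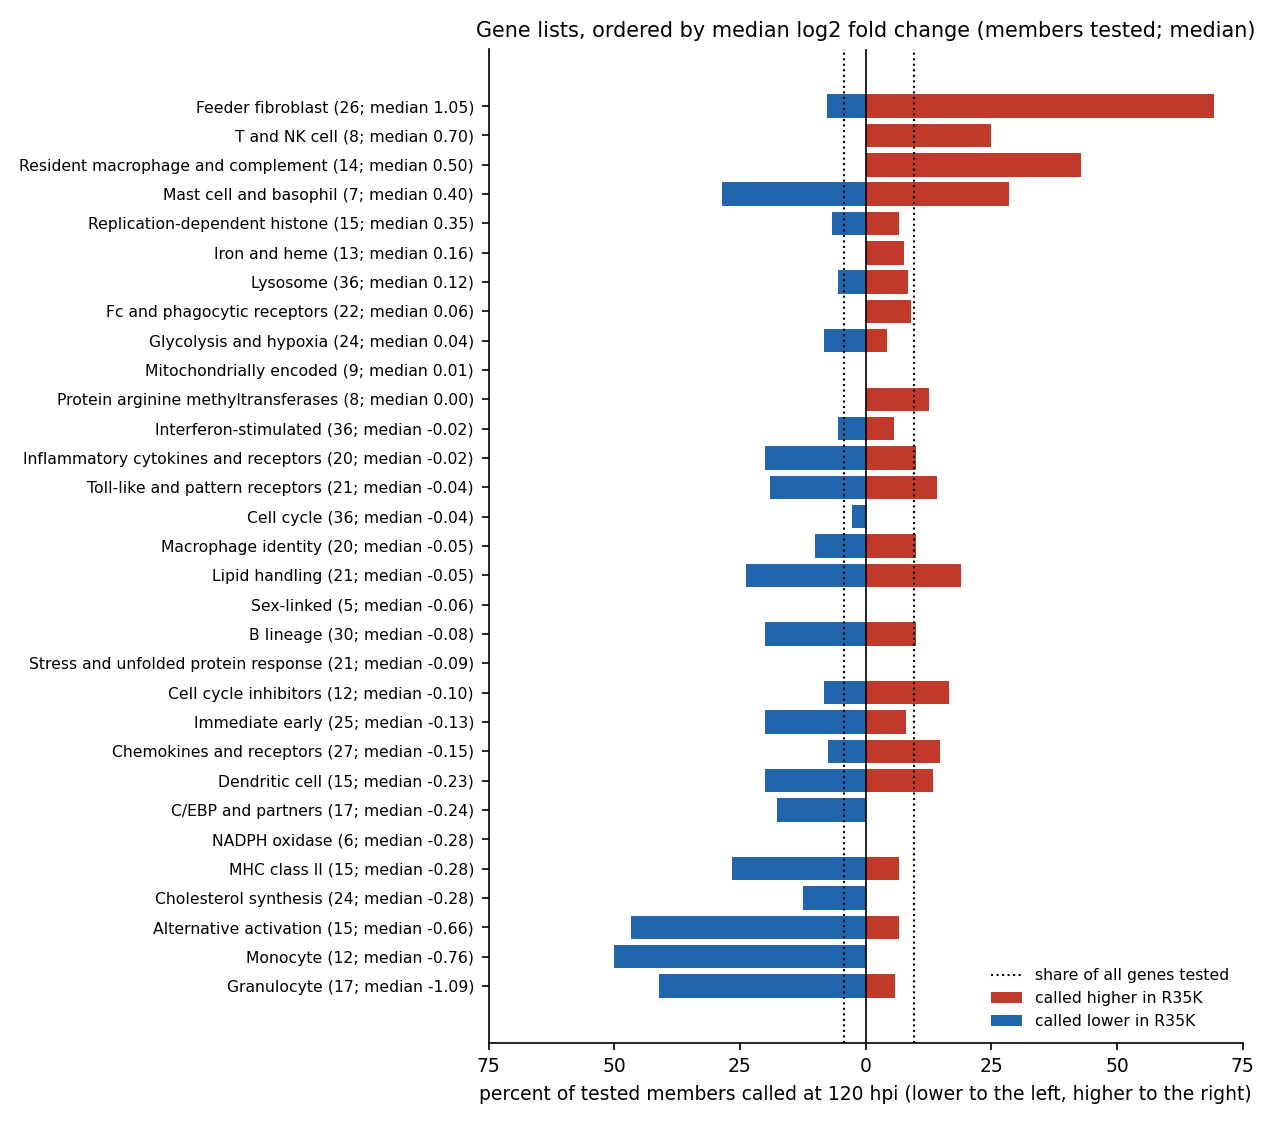
For each of the 31 lists with at least 5 tested members, the percent of tested members called higher (red, to the right) or lower (blue, to the left) in R35K at 120 hpi is drawn, ordered by the median log2 fold change, which stands with the number of members beside the name. The dotted lines mark the shares over all genes tested, 9.67% higher and 4.33% lower. Feeder fibroblast and resident macrophage genes extend furthest to the right, and monocyte, alternative activation and granulocyte genes furthest to the left.

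Genes on the lists of other cell types were called as well, beside 9.67% higher and 4.33% lower of all genes. The granulocyte list summed to 75.2 and 76.1 CPM at 0 hpi and to 2790 and 2850 CPM at 120 hpi in wild type. The source of these transcripts was not tested. Of 30 B lineage genes, 29 were below their 0 hpi level in both constructs at 120 hpi, 6 were lower and 3 were higher in R35K, with a median of −0.08 (0 with members at the detection floor set to their bound or left out). The immunoglobulin heavy chain gene Ighm was at 111 and 107 CPM in wild type and at 34.0 and 35.5 CPM in R35K, against 2857 to 3005 CPM at 0 hpi (log2 fold change −1.65, edgeR adjusted p = 1.16e-20). Pax5, a transcription factor of B cell identity, was at 1.46 and 1.39 CPM in wild type and at 0.476 and 1.17 CPM in R35K and was not called. Pou2af1, Cd22 and Ebf1 were higher in R35K at 1.38, 1.17 and 0.84. Of 17 granulocyte genes 7 were lower and Mmp9 was higher, with a median of −1.09 (−1.08 at the bound), among them the neutrophil alarmin S100a8 at 7.12 and 8.04 CPM in wild type and 3.25 and 1.17 CPM in R35K (edgeR adjusted p = 4.20e-07). Elane, Camp, Ngp and Ly6g, which define granulocytes, had at most 3 counts in every library at 120 hpi. The basophil protease Mcpt8 was at 0.429 and 0.370 CPM in wild type and at 4.13 and 4.90 CPM in R35K. At 0 hpi Mcpt8 was at 6.84 to 7.87 CPM, so it fell in both constructs and fell less in R35K. Cpa3, Fcer1a and Ms4a2 of the same cells had at most 3 counts in each library at 120 hpi. Of the lists not yet described, 2 of 15 dendritic cell genes were higher and 3 lower, 2 of 7 mast cell and basophil genes were higher and 2 lower, and 2 of 8 T and NK cell genes were higher, while 5 of the 8 were at the detection floor of 3 counts a library in both groups. Of 12 cell cycle inhibitors 2 were higher and 1 was lower, of 15 replication-dependent histones 1 was higher and 1 lower, and of 3 erythroid and megakaryocyte genes 1 was higher and 1 lower. None of the 9 mitochondrially encoded genes and none of the 5 sex-linked genes was called by edgeR.

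Transcripts of feeder fibroblasts were among the higher calls. Their 8 markers summed to 878 to 947 CPM at 0 hpi, to 157 and 136 CPM in wild type at 120 hpi and to 415 and 356 CPM in R35K. Of the 26 listed fibroblast genes, 18 were higher and 2 lower in R35K, against 9.67% and 4.33% of all genes. Their median was 1.05 (1.09 at the bound). Col1a1 was at 32.9 and 23.7 CPM in wild type and at 88.4 and 72.0 CPM in R35K (log2 fold change 1.5), and Pdgfra, a receptor of mesenchymal cells, at 17.2 and 17.7 CPM and at 50.7 and 47.8 CPM (log2 fold change 1.49, edgeR adjusted p = 1.40e-15). Relative to 0 hpi most of the list fell, and 4 of the 26 genes were above their own 0 hpi mean in R35K at 120 hpi. Acta2, Timp3 and Mmp2 were not called between the constructs, at 0.11, 0.22 and 0.08, Lum was at 0 CPM in all 4 libraries and Postn at 0.155 to 0.37 CPM, and Thbs1, at 16681 and 16976 CPM in wild type, was lower at −1.38. Of the 1550 genes higher in R35K, 749 were below their own 0 hpi level in R35K cells at 120 hpi and 801 were above it. The part of feeder RNA in the higher calls was not tested.

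The genes were then divided by how they changed in R35A cells, of which 0 libraries entered the comparison of R35K with wild type. In R35A cells 4640 genes rose and 5222 fell from 0 to 120 hpi. Among the 4588 rising genes that were tested here, 655 (14.3%) were higher in R35K than in wild type and 254 (5.54%) were lower. Among the 5148 falling genes, 577 (11.2%) were higher and 256 (4.97%) lower, and among the 6297 others 318 (5.05%) were higher and 184 (2.92%) lower. The rising class held 13 of the 14 resident macrophage genes, with all 6 higher ones, and 10 of the 12 monocyte genes, with all 6 lower ones. The falling class held 21 of the 26 feeder genes and 14 of the 18 that were higher.

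The whole of BMT was much larger than the difference between the constructs. From 0 to 120 hpi, 10101 genes (63.0%) changed in wild-type cells and 10100 (63.0%) in R35K cells, which share no libraries. In wild type 4692 genes (29.3%) rose and 5409 (33.7%) fell, and in R35K 4750 (29.6%) rose and 5350 (33.4%) fell. The 8885 genes called in both with the same direction were 88% of each set, with median absolute log2 fold changes of 2.03 in wild type and 1.91 in R35K over the 8907 genes called in both. The change differed between the constructs for 1601 genes (9.99%), 1126 higher (7.02%) and 475 lower (2.96%) in R35K. Of the 1550 genes higher at 120 hpi, 1068 passed this second test, as did 402 of the 694 lower genes. Both tests use the same libraries at 120 hpi, so this overlap is not independent support. A difference that was constant between the tables on the log2 scale would cancel in the second test. For genes near 0 CPM at 0 hpi, such as Ace, the change is poorly measured and the second test missed the threshold (log2 difference in change −2.53, edgeR adjusted p = 0.10).

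**Figure D4:**
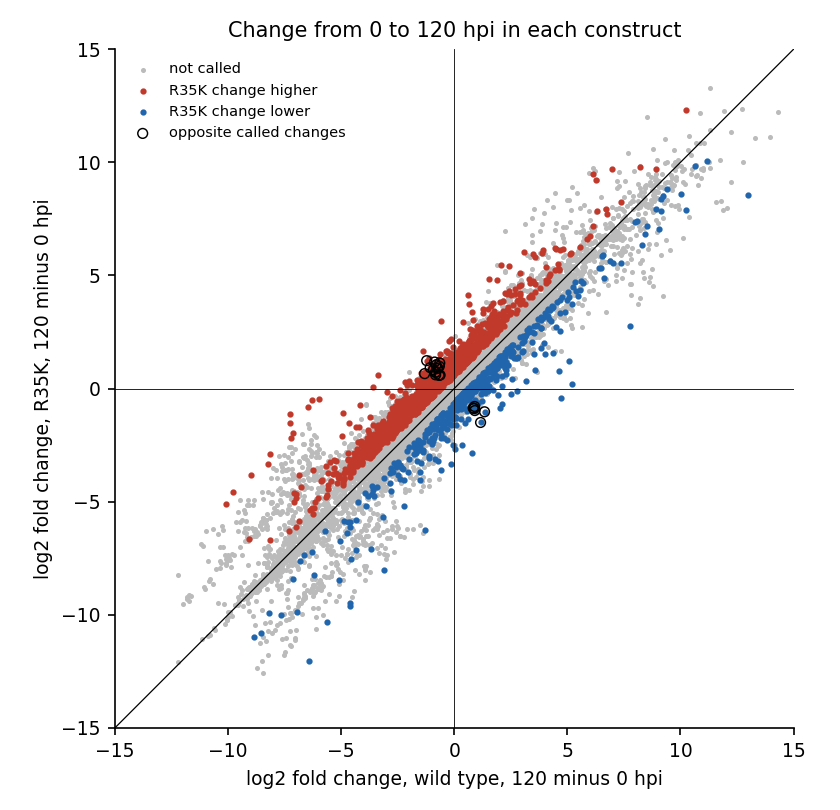
The log2 fold change from 0 to 120 hpi in R35K cells (vertical) is plotted against that in wild-type cells (horizontal), 1 point per gene, with the diagonal drawn. Red and blue points are the 1126 genes with a higher and the 475 with a lower change in R35K, and open circles mark the 22 genes called in opposite directions, all close to the origin.

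R35K and R35A were set side by side in 1 fit of the 12 libraries of the 3 constructs at 0 and 120 hpi. In it 2269 genes (13.9%) differed between R35K and wild type, 3057 (18.7%) between R35A and wild type and 414 (2.53%) between R35K and R35A, of 16343 tested. The first 2 comparisons share the wild-type libraries, and the third spans both tables, for which 1 gene (0.00612%) was called at 0 hpi. For R35K and R35A against wild type, 2 (0.0122%) and 4 genes (0.0245%) were called at 0 hpi in this fit. Of the 24 genes with the largest differences, 10 differed between the mutants. Vldlr was at 11.2 and 13.4 CPM in R35K and at 6.18 and 6.38 CPM in R35A (log2 difference 0.97, edgeR adjusted p = 1.28e-06), and its log2 fold changes against wild type were 3.9 and 2.94. Mefv, at 8.77 and 9.31 CPM in R35K and 2.52 and 2.65 CPM in R35A, was 1.80 higher in R35K on the log2 scale (edgeR adjusted p = 2.14e-09), with −2.03 and −3.83 against wild type. Saa3, at 8.37 and 8.61 CPM in R35K and 22.99 and 19.6 CPM in R35A, was lower in R35K by −1.32 (edgeR adjusted p = 8.45e-11), with 2.30 and 3.62 against wild type. Rab44, with −2.61 in R35K and −2.66 in R35A, was not called between the mutants. The other 7 were Ch25h, Pcdhac2, Dnm1, Htra1, P2rx1, Ace and Tmem108.

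Some list genes differed between the 2 mutants as well, while others, given last, did not. Cd5l was at 270 and 265 CPM in wild type, at 518 and 538 CPM in R35K and at 246 and 259 CPM in R35A, so that the R35K libraries stood above those of both other constructs (R35K minus R35A 1.07, edgeR adjusted p = 1.10e-19). Rsad2, an interferon-stimulated antiviral gene, was at 208 and 223 CPM in wild type, 131 and 126 CPM in R35K and 212 and 212 CPM in R35A (R35K minus R35A −0.72, edgeR adjusted p = 6.02e-14). S100a8 was at 3.27 and 1.17 CPM in R35K and at 6.74 and 8.03 CPM in R35A (−1.74, edgeR adjusted p = 4.27e-07). Marco was at 44.5 and 41.5 CPM in R35K and at 104 and 101 CPM in R35A (−1.25, edgeR adjusted p = 8.14e-17). For Siglec1 the values were 1524 and 1602 CPM in R35K and 1796 and 1759 CPM in R35A, a log2 difference of −0.19 that did not reach the fold threshold. Against the same wild-type libraries, log2 fold changes in R35K and R35A were 1.83 and 2.02 for Siglec1 and 1.35 and 1.25 for Gas6. For Cd5l they were 0.98 and −0.08. For Ace, Vcan and Nr4a1 they were −2.34 and −3.41, −0.96 and −1, and −0.87 and −1.25. For the feeder genes Col1a1, Pdgfra and Thy1 they were 1.48 and 1.87, 1.48 and 1.68, and −2.06 and −1.85. Of these genes, Cd5l and Ace were called between the mutants.

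**Figure D5:**
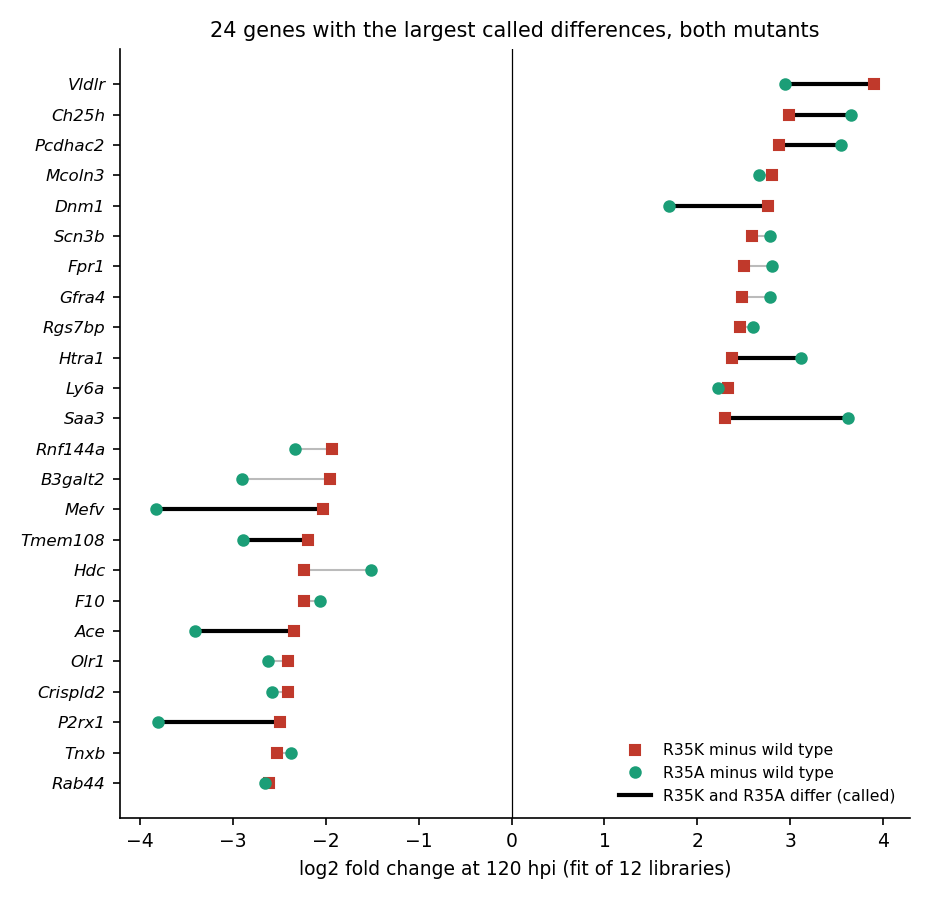
Log2 fold changes against wild type at 120 hpi are shown for the 24 genes with the largest called differences between R35K and wild type, red squares for R35K and green circles for R35A, both from the fit of 12 libraries. A thick black line joins the 2 values where R35K and R35A themselves differed by test, which holds for 10 genes, among them Vldlr, Dnm1, Saa3, Mefv and P2rx1.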

How the data were processed

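Per the labels, the submitters' processing notes and the study's methods, polyadenylated RNA of BMT cells was sequenced as stranded single-end reads, and the authors aligned them to mm10 with STAR 2.5.0a, checked them with FastQC, counted reads per gene and normalized with DESeq2 1.14.1. The annotation release and the strand column are not given in the sources used here. The values used are the deposited counts, whole numbers without normalization for 40354 genes in each of 2 tables; the log2 normalized tables were not used. The tables were joined by gene symbol, and 0 columns were left unused.

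The 8 libraries of the wild-type and R35K groups at 0 and 120 hpi, with 2 replicates each, were fitted together in R 4.3.3 with edgeR 4.0.16 (filterByExpr, TMM, quasi-likelihood F test, 1 mean per group, common biological coefficient of variation 3.42%). Genes were called at 1.5-fold with p adjusted over all genes tested by Benjamini-Hochberg, up to 0.05. The fold threshold is that of the study's methods, while its results text speaks of changes above 2-fold. CPM use the TMM-scaled library sizes, and standard errors come from the F statistic. A count of at most 3 in both libraries of a group is the detection floor, which covers counting error only. The p-values rest on a spread between replicates that all 8 libraries share, with 2 libraries a group, which the study calls biological replicates. Replicates lay further apart at 120 hpi (1.8 to 2.16 times counting noise) than at 0 hpi (1.2 to 1.39 times). With only the 4 libraries of the comparison in the fit, 2154 genes were called at 120 hpi.

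The comparison, the 32 gene lists (590 genes, 531 tested) and the rules were chosen with earlier results of these data known, so list counts are descriptions read against the share called over all genes. Named were the 12 highest and 12 lowest called genes with groups that do not overlap and at least 5 CPM in the higher group (1347 genes qualified, without predicted genes, immunoglobulin segments and small RNAs), up to 3 called members of each list at 1 CPM or more, and 11 fixed genes; other list members were named to complete a count after their values were seen. Of the 16033 symbols tested, 98.8% were found in GENCODE vM21, the source of coordinates. The classes of R35A cells came from an edgeR fit of the 4 R35A libraries at 0 and 120 hpi alone. The alternatives were each library left out, other size factors, a DESeq2 1.42.0 Wald test, other filters, 4, 12 or 36 libraries in the fit, a replicate block, a 2-fold threshold and unadjusted p. A few list genes are not reported here.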

Additional observations from a re-analysis of the deposited data

Results flagged for a closer look

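The change from 0 to 120 hpi differed between R35K and wild-type cells, by the test of the difference in change, for 1601 genes (9.99%). It also differed for 69 of the 98 named genes. Most named genes were chosen for a call at 120 hpi, and the same libraries enter this test. A high share among them follows from that choice. For 22 genes the change was called in both constructs and in opposite directions. Of these, 4 were among the 24 named for their difference at 120 hpi. Crispld2 went from 3.48 and 3.74 CPM at 0 hpi to 8.06 and 8.13 CPM in wild type, and from 4.01 and 4.71 CPM to 1.51 and 1.55 CPM in R35K, a difference in change of −2.66 on the log2 scale. Dnm1 fell in wild type, from 10.9 and 9.64 CPM to 4.46 and 4.34 CPM, and rose in R35K, from 12.9 and 12.7 CPM to 31.1 and 29.1 CPM, a difference of 2.45. P2rx1 rose in wild type to 14.2 and 13.3 CPM and fell in R35K to 2.38 and 2.57 CPM, from 4.88 to 5.52 CPM at 0 hpi, a difference of −2.37. For Rnf144a, which rose in wild type to 19.5 and 20.3 CPM and fell in R35K to 4.28 and 6.22 CPM, the difference was −1.69.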

How the results depend on the processing

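Of the counts of called genes, those at 120 hpi, of the difference in change and of the changes from 0 to 120 hpi stayed within 1.5 times their value under the alternatives run, except at a 2-fold threshold, which left 1199 genes at 120 hpi, 870 for the difference in change, 60 of 131 list genes, and 2 of 6 resident, 1 of 6 monocyte and 4 of 7 alternative activation genes. With each library left out in turn the counts were 2014 to 2232 at 120 hpi, 0 to 9 at 0 hpi, 1443 to 1598 for the difference in change, 9977 to 10334 and 9981 to 10440 for the changes in wild type and R35K, and 122 to 130 list genes. At 0 hpi the count of 0 became 9 without a low-count filter, 6 with 4 libraries, 2 with 12 libraries, 5 with the replicate block and 162 at unadjusted p. Leaving aside unadjusted p, the called genes were 9 in all (n-R5-8s1, Rn7sk, Lars2, Mir6236, CT010467.1, Gm15564, Gm23935, Gm24601 and Gm37194), and without the first wild-type library at 0 hpi 0 were called. The DESeq2 Wald test called 1775 genes at 120 hpi, 1769 of them shared with edgeR. The replicate number was tested as pairing: replicate differences of wild type and R35K at 120 hpi correlated with r = 0.36 over 8263 genes and the other pairs of groups with −0.2 to 0.05, and the labels tie the numbers to nothing further, so the main comparison was left unpaired; with the replicate block 2234 genes were called at 120 hpi, 2221 of them the same genes. Of 98 named genes 0 changed direction. Without 1 of the 4 libraries at 120 hpi, Thy1, H2-Oa, Ppbp, Pf4, Cdt1, Cdkn2b, Prmt2, Ebf1 or Pdcd1lg2, among others, lost their call, and Lyz2 or Pax5 gained one. The genes chosen in R35A cells and called at 120 hpi, 1742 in all, were 1703 to 1731 with an R35A library left out, an alternative added after seeing the data. With 2 libraries a group, genes under about 1 CPM were measured with few counts.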

Other observations

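At 0 hpi the first wild-type library stood apart from the other 3 for a few transcripts that are not messenger RNAs of the B cell or macrophage program. The 5.8S ribosomal RNA gene n-R5-8s1 was at 9.22 CPM there and at 0.364 to 0.681 CPM in the others, the 7SK RNA gene Rn7sk at 9.41 CPM and at 2.86 to 4.09 CPM, and Lars2 at 203 CPM and at 65.4 to 69.7 CPM. At 120 hpi none of these 3 genes was called between R35K and wild type by edgeR, with log2 fold changes of −2.29 for n-R5-8s1, which was at 0 to 1.03 CPM, −0.62 for Rn7sk and −0.27 for Lars2.

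Among the 22 genes called in opposite directions, Sh3bgrl2 was at 13.3 and 14.5 CPM in wild type and at 54.5 and 58.1 CPM in R35K at 120 hpi, against 28.7 to 30.5 CPM at 0 hpi, and the secreted guidance cue gene Sema3a was at 23.8 and 22.9 CPM in wild type and at 61.0 and 58.8 CPM in R35K. Both were chosen after their values were seen.

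Of the genes with the largest differences between the mutants at 120 hpi, also chosen after their values were seen, Penk, which encodes the precursor of enkephalins, was at 28.1 and 25.4 CPM in wild type, at 13.7 and 14.7 CPM in R35K and at 61.99 and 61.2 CPM in R35A. The vascular endothelial growth factor receptor Flt1 was at 33.2 and 31.3 CPM in wild type, 33.6 and 35.4 CPM in R35K and 85.3 and 78.9 CPM in R35A.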
